A study of Mus musculus with 20 samples.

Results

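Sort1 and Sorl1, which encode the VPS10-domain receptors sortilin and SORLA, and Vps35, Vps26a and Vps29, which encode the retromer trimer, were followed in mouse bone marrow-derived macrophages. These 5 genes, of 24338 symbols in the count table, were taken as a set because their products act on the same sorting step and because Sort1 had stood out in these same libraries. Their levels in all 6 groups were known when they were chosen, so their changes are given below as descriptions, without p-values. Where any of them is said below to pass a test's threshold, that too is a description, since the choice had used these values. Macrophages were grown for 7 to 8 days from marrow of C57BL/6 mice, with 15% L929-conditioned medium as the source of M-CSF. In one arm differentiation took place with 1 µM SGC0946, which blocks DOT1L, one of the enzymes that methylate histone H3, and in the other arm with DMSO, the control. Cells of each arm were then left unstimulated (DMSO and SGC0946, n = 4 each), given 10 ng/mL LPS for 3 h (DMSO+LPS and SGC0946+LPS, n = 3 each), or given 2 µM of the LXR agonist GW3965 for 17 h (DMSO+GW3965 and SGC0946+GW3965, n = 3 each). No group carries a genetic change, and the labels give neither age nor sex. Since the inhibitor was there throughout differentiation, effects on the finished macrophage and on the way the cells differentiated cannot be told apart.

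Sortilin and SORLA are type I membrane proteins that bind cargo in the trans-Golgi network and at the cell surface and carry it towards endosomes and lysosomes, with GGA and AP-1 adaptors on the way out. Retromer, built from VPS35, VPS26 and VPS29, coats endosomal tubules together with sorting nexins and returns such receptors to the Golgi or the plasma membrane before they are degraded. In macrophages sortilin is known for handling lysosomal cargo such as prosaposin and acid sphingomyelinase and for roles in lipid uptake and cytokine secretion. SORLA is known more generally, not from macrophages in particular, as a sorting receptor of the amyloid precursor protein and of lipoprotein lipase.

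Libraries held 8.17 to 13.33 M counts in the table used for testing, and 190 to 6007 counts of each of the 5 genes. The 8 macrophage markers, which include Adgre1, Csf1r and Cd68, were all measured and summed to 12100 to 20700 CPM, counts scaled to library size, in every library. The labelled stimuli were visible in both arms: Tnf stood at 7.19 ± 0.777 CPM (SD, n = 4) in DMSO and 2660 ± 103 CPM (SD, n = 3) in DMSO+LPS cells, and the LXR target Abca1 rose by 1.80 ± 0.11 on the log2 scale with GW3965 in the DMSO arm and by 1.72 ± 0.11 in the SGC0946 arm (edgeR adjusted p = 2.38e-09 and 4.64e-09). Dot1l, whose product SGC0946 blocks, had 58.5 ± 3.86 CPM without the inhibitor and 51.9 ± 9.64 CPM with it in unstimulated cells. Among unstimulated SGC0946 cells, replicates 2 and 4 were more like each other (chi-square per gene 5.14) than like replicates 1 and 3 (7.85 to 10.9). The word reanalyzed stands in 6 titles, those of replicates 1 to 3 of the DMSO and of the DMSO+GW3965 group. In the GW3965 comparison of the arms that word and the inhibitor cannot be told apart.

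RefSeq promoter windows (GRCm38.p6, 250 bases before to 50 after the outermost start) were found for 3 of the 5 genes. They are shown because the retromer genes moved alike after LPS, as described below. Of these, Vps26a and Vps29 had a window, and the receptor gene Sorl1 is given for comparison. Capitals mark matches, on either strand, to 2 letter strings that do not overlap each other: the E-box CACGTG, known from promoters of lysosomal genes, and the sterol regulatory element TCACNCCAC.
Vps26a: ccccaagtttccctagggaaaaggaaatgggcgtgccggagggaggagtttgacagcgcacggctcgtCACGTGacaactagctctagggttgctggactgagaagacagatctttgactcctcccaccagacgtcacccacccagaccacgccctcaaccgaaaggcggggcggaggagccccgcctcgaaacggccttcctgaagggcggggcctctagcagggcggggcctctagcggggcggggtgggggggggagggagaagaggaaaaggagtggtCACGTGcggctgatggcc
Vps29: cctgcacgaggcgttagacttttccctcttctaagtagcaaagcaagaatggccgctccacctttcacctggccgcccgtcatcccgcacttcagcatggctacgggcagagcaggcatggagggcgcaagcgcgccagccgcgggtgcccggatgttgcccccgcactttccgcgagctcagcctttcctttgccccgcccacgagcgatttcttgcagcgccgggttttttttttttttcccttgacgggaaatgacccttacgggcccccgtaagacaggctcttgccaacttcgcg
Sorl1: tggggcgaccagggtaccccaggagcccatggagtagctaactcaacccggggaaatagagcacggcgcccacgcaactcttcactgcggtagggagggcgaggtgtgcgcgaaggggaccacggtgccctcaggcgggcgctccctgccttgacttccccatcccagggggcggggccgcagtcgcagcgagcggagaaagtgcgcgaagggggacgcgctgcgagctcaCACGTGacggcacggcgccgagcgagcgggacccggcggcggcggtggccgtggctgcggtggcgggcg
The Vps26a window, chr10:62486756-62487055 on the minus strand, held E-boxes at -182 and 33 from the start site. The Sorl1 window, chr9:42124248-42124547 on the minus strand, held an E-box at -19. The Vps29 window, chr5:122354078-122354377 on the plus strand, held neither string. Of 32851 such windows, 7.15% held the E-box and 1.24% the sterol element. The windows were 64.7% (Vps26a), 60.7% (Vps29) and 72.3% (Sorl1) GC, against a median of 52.7% over all windows. These matches describe the letters of the windows and are no measure of binding. Vps26a and Sorl1 each have a window at another start, which is not printed. That of Vps26a overlaps the printed one and held E-boxes at -175 and -151, and that of Sorl1 held neither string. Opening bases of a GENCODE transcript were found on the same strand in the printed Vps26a and Sorl1 windows, but not in that of Vps29.

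Sort1 was lower with SGC0946 in every stimulus state. The gene lies at chr3:108283974-108361519 on the plus strand (mm10). In unstimulated cells it stood at 85.2, 94, 83 and 102 CPM in DMSO replicates 1 to 4 and at 40.1, 36.8, 36 and 45.2 CPM in SGC0946 replicates 1 to 4. The highest SGC0946 library was thus well below the lowest DMSO library. Sort1 fell by 1.20 ± 0.08 on the log2 scale (SE, n = 4 against 4), a change of -56.5%, and held place 30 from the lowest among 12010 genes. It was the only one of the 5 genes called (edgeR's quasi-likelihood test, p under 0.05 after Benjamini-Hochberg adjustment) in that comparison, where 8.72% of all genes were called.

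After LPS, Sort1 was at 71.1, 71.2 and 66.4 CPM in DMSO+LPS replicates 1 to 3 and at 32.9, 27.7 and 32.5 CPM in SGC0946+LPS replicates 1 to 3. It fell by 1.17 ± 0.10 (SE, n = 3 against 3), or -55.5%, and was again the only one of the 5 called, against 7.12% of all genes. With GW3965 the DMSO arm was at 73.7, 80.1 and 73.3 CPM and the SGC0946 arm at 34.3, 31.4 and 34.4 CPM. The fall was 1.18 ± 0.09, or -55.9%, and no other of the 5 genes was called, against 3.64% of all genes. The groups did not overlap in any of the 3 states, which held for 16.1%, 23.6% and 20.3% of all genes in unstimulated, LPS and GW3965 cells.

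The size of the Sort1 change was thus close to the same in all 3 states. The difference between the change after LPS and that in unstimulated cells was 0.03 ± 0.12 on the log2 scale (95% interval -0.21 to 0.27), and the difference for GW3965 was 0.02 ± 0.12 (-0.21 to 0.25). Taken mouse by mouse, with the SGC0946 and DMSO libraries of the same animal set against each other, Sort1 was lower in 4 of 4 unstimulated pairs (-1.35 to -1.08), 3 of 3 LPS pairs (-1.36 to -1.03) and 3 of 3 GW3965 pairs (-1.35 to -1.09). Without mice 2 and 4 the unstimulated change was -1.14, and without the libraries titled reanalyzed it was -1.37 and rested on 1 DMSO library.

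Neutrophil markers moved with the inhibitor in the same direction as Sort1. Of 9 markers, 4 passed the filter on low counts. Single libraries reached 8.74 CPM for S100a8, 19.4 for S100a9, 12.5 for Ngp and 8.45 for Ltf. Camp, Ly6g, Elane, Mpo and Retnlg had at most 10, 4, 3, 5 and 6 counts in any library. Zeros among these say little: 3 of the 9 were at 0 in every SGC0946 library, and 1 in every DMSO+LPS library. The summed level of the 9 was 28.8 to 38 CPM in DMSO and 1.91 to 7.41 CPM in SGC0946 cells. It was 38.2 to 46.5 CPM in DMSO+LPS against 6.47 to 7.22 CPM in SGC0946+LPS, and 24.4 to 37.9 CPM in DMSO+GW3965 against 2.4 to 4.66 CPM in SGC0946+GW3965. Their part in the Sort1 result was not tested. In bulk samples such as these, fewer cells of a type and less RNA per cell cannot be told apart. An antisense gene, Gm12523, shares 338 of the 7569 exon bases of Sort1 in the GENCODE M21 annotation, and whether reads were counted by strand is not given in the sources used here.

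**Figure D1:**
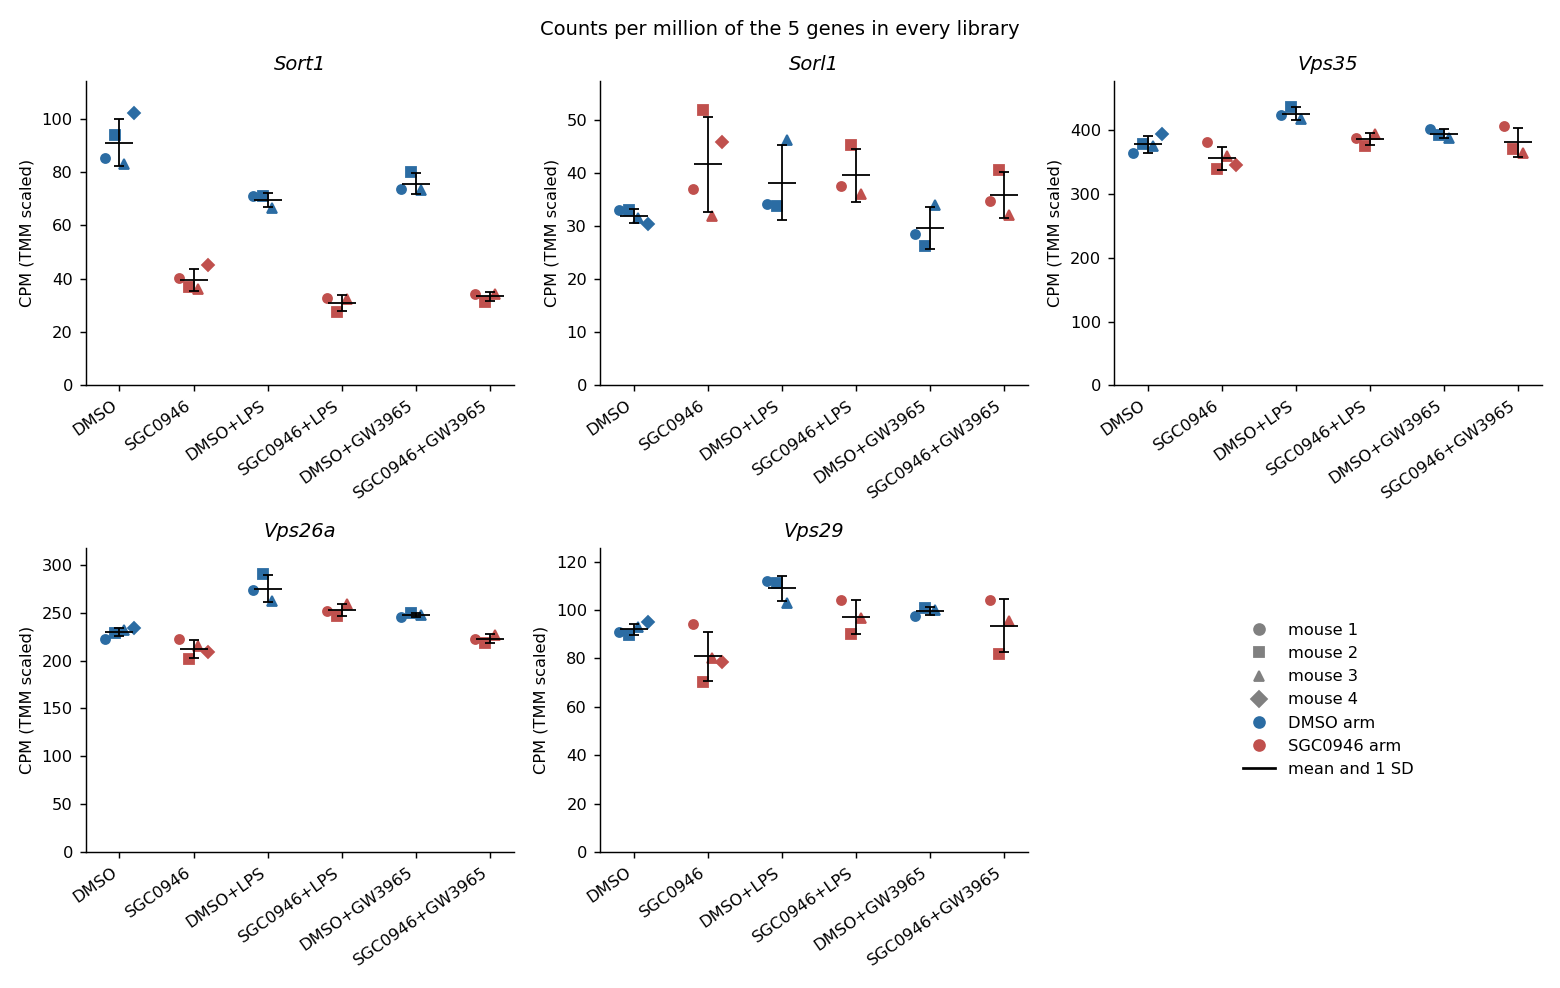
Level of each of the 5 genes in every library, in CPM after TMM scaling (linear axes from 0), for the 6 groups on the horizontal axis; marker shapes give the mouse, blue and red the DMSO and SGC0946 arms, black bars the group mean and 1 SD. Sort1 separates the arms in every state (83 to 102 CPM in DMSO and 36 to 45.2 CPM in SGC0946 cells), while Sorl1 overlaps between the arms in each state.

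Sort1 was also lower after LPS within each arm. It fell by 0.39 ± 0.08 in the DMSO arm and by 0.36 ± 0.09 in the SGC0946 arm, without overlap between LPS and unstimulated libraries in either, as held for 74.9% and 70.6% of all genes. With GW3965 it changed by -0.27 ± 0.08 in the DMSO arm and by -0.25 ± 0.09 in the SGC0946 arm. Neither GW3965 change was called, although the groups did not overlap, as was the case for 19.8% and 10.9% of all genes in those comparisons. DESeq2, and a fit on the compared groups alone, did call the DMSO arm change at the same value of -0.27. Ordered by mean, Sort1 ran from DMSO (91 ± 8.75 CPM) through DMSO+GW3965 (75.7 ± 3.81), DMSO+LPS (69.6 ± 2.71), SGC0946 (39.5 ± 4.17) and SGC0946+GW3965 (33.4 ± 1.7) to SGC0946+LPS (31 ± 2.92). The last pair overlapped, and the libraries of every other pair of neighbours did not.

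Sorl1, at chr9:41964709-42124297 on the minus strand, did not share this pattern. In unstimulated cells it was at 33, 33, 31.4 and 30.3 CPM in DMSO replicates 1 to 4 and at 37, 51.7, 31.8 and 45.8 CPM in SGC0946 replicates 1 to 4. The 2 highest values belong to mice 2 and 4, and the SGC0946 library of mouse 3 lay within the DMSO range. The change of 0.39 ± 0.13 (SE, n = 4 against 4; 95% interval 0.13 to 0.64) was not called. It was called with mouse as a replicate block (0.38), with DESeq2 (0.40), with library totals (0.40), with no filter on low counts (0.38) and without SGC0946 replicate 3 (0.49), and it was 0.10 and not called without mice 2 and 4.

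After LPS, Sorl1 was at 34.2, 33.8 and 46.2 CPM in DMSO+LPS replicates 1 to 3 and at 37.5, 45.2 and 35.9 CPM in SGC0946+LPS replicates 1 to 3, a change of 0.06 ± 0.16. With GW3965 it was at 28.5, 26.3 and 34 CPM in the DMSO arm and at 34.7, 40.6 and 32 CPM in the SGC0946 arm, a change of 0.28 ± 0.15. The arms overlapped in both states and neither change was called. LPS against unstimulated cells gave 0.25 ± 0.15 in the DMSO arm and -0.07 ± 0.14 in the SGC0946 arm, a difference of -0.32 ± 0.20 (95% interval -0.72 to 0.08), and GW3965 gave -0.11 ± 0.14 and -0.22 ± 0.14. None of these was called, and the groups overlapped except for LPS in the DMSO arm, where 74.9% of all genes did not overlap. The sign and call of the Sorl1 LPS changes rest on the scaling: with library totals Sorl1 was called lower after LPS in both arms (-0.48 and -0.81), and with upper quartile scaling it was at -0.06 in the DMSO arm and called lower at -0.37 in the SGC0946 arm. A fit on the compared groups alone called it higher in the DMSO arm (0.26). By group mean Sorl1 ran from 29.6 ± 3.93 CPM in DMSO+GW3965 to 41.6 ± 8.9 CPM in SGC0946 cells, and every pair of neighbours in that order overlapped.

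**Figure D2:**
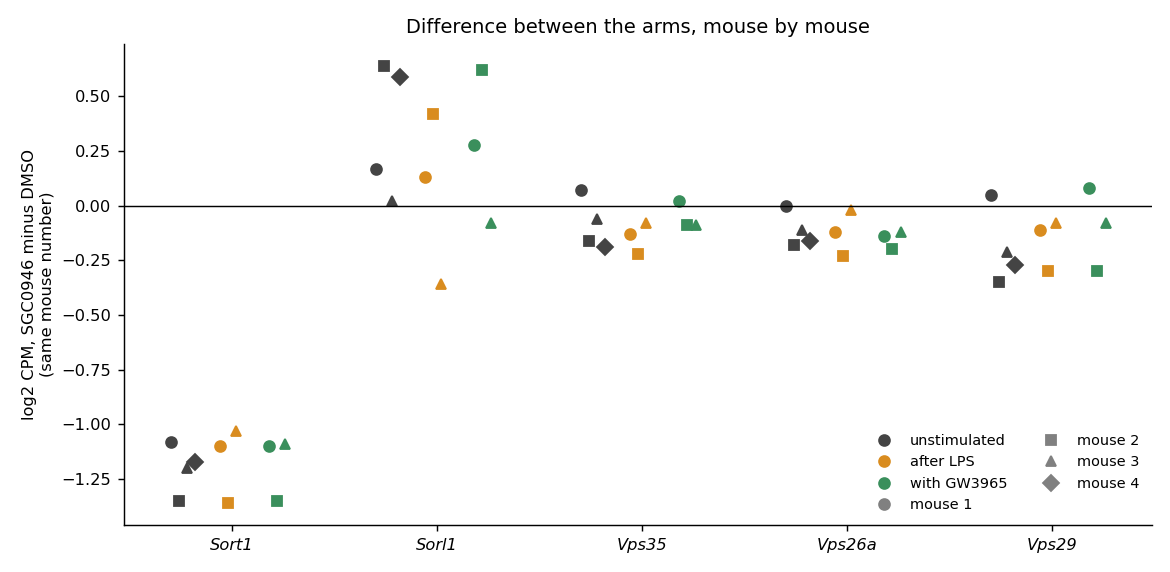
Difference in log2 CPM between the SGC0946 and the DMSO library of the same mouse (vertical axis) for each of the 5 genes; colours give the stimulus state and marker shapes the mouse. All 10 Sort1 differences lie between -1.36 and -1.03, while those of Sorl1 run from -0.36 to 0.64 and those of the retromer genes stay between -0.35 and 0.08.

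On a scale per transcript length, which allows genes to be compared with each other, the 2 receptor genes were far below the retromer genes. In DMSO cells the deposited RPKM values were 121 ± 2.93 for Vps35, 75.1 ± 0.356 for Vps26a, 34.3 ± 0.564 for Vps29, 13.3 ± 1.21 for Sort1 and 4.69 ± 0.27 for Sorl1 (SD, n = 4), with no overlap between neighbours in that order. The Vps29 value depends on the transcript: on its other annotated transcript, which held 89.9% as many counts, it was 85.8 ± 1.46 RPKM, above Vps26a. Sort1 was thus above Sorl1 in every DMSO library. In SGC0946 cells Sort1 (5.109 to 6.736 RPKM) and Sorl1 (4.52 to 7.293 RPKM) overlapped, as they did with GW3965 added (4.457 to 5.145 and 4.797 to 5.771 RPKM). In SGC0946+LPS cells Sort1 was at 2.368 to 2.847 RPKM, below Sorl1 at 3.038 to 3.882 RPKM in the same libraries. The other VPS10 receptor genes, Sorcs1, Sorcs2 and Sorcs3, had at most 2 counts, 1 count and 0 counts in any library.

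Among the retromer genes no inhibitor change was called. Vps35, at chr8:85260385-85299517 on the minus strand, encodes the scaffold of the trimer. It stood at 364, 378, 375 and 395 CPM in DMSO and at 381, 339, 360 and 346 CPM in SGC0946 replicates 1 to 4, a change of -0.09 ± 0.05. After LPS it was at 424, 437 and 418 CPM against 388, 376 and 395 CPM in the SGC0946 arm, and with GW3965 at 402, 393 and 388 CPM against 407, 370 and 365 CPM. The LPS libraries of the arms did not overlap (-0.14 ± 0.06), as held for 23.6% of all genes, and the GW3965 libraries did (-0.05 ± 0.06).

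Vps26a, at chr10:62454843-62486805 on the minus strand, encodes the arrestin-like subunit that joins retromer to sorting nexins. It was at 223, 229, 232 and 234 CPM in DMSO and at 223, 202, 215 and 209 CPM in SGC0946 replicates 1 to 4, so that the lowest DMSO and the highest SGC0946 library were level at this rounding. After LPS it was at 274, 290 and 262 CPM in the DMSO arm and 252, 247 and 259 CPM in the SGC0946 arm, and with GW3965 at 246, 250 and 248 CPM and 223, 218 and 227 CPM. The SGC0946 arm was lower by a small margin in each state, with changes of -0.11 ± 0.04, -0.12 ± 0.05 and -0.15 ± 0.05 in unstimulated, LPS and GW3965 cells. In LPS and GW3965 cells the arms did not overlap, as held for 23.6% and 20.3% of all genes. DESeq2 called the last of these changes, at -0.15.

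Vps29, at chr5:122354328-122364984 on the plus strand, encodes the subunit that binds retromer regulators. It was at 91.1, 89.6, 92.8 and 94.9 CPM in DMSO and at 94.4, 70.3, 80 and 78.6 CPM in SGC0946 replicates 1 to 4. Of the SGC0946 libraries only that of mouse 1 lay within the DMSO range. The change of -0.19 ± 0.07 was not called, and it was called with mouse as a replicate block (-0.20) and without SGC0946 replicate 1 (-0.27). After LPS it was at 112, 111 and 103 CPM against 104, 90.1 and 96.9 CPM (-0.16 ± 0.09), and with GW3965 at 97.7, 101 and 100 CPM against 104, 82 and 95.3 CPM (-0.09 ± 0.09). In the GENCODE M21 annotation the antisense gene Fam216a shares 340 of the 6148 exon bases of Vps29. Likewise, Orc6 shares 171 of the 8899 exon bases of Vps35. Since the strand setting of the counting is not given, reads of Fam216a and Orc6 may or may not enter the retromer counts.

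After LPS the retromer genes and Sort1 moved in opposite directions on the TMM scale. In the DMSO arm Vps35 rose by 0.17 ± 0.05, Vps26a by 0.26 ± 0.05 and Vps29 by 0.24 ± 0.08 (SE, n = 3 against 4), so that 3 of the 5 genes were called higher and 1, Sort1, lower, where 74.1% of all genes were called (35.4% higher and 38.7% lower). In the SGC0946 arm Vps26a rose by 0.25 ± 0.05 and Vps29 by 0.26 ± 0.08, Vps35 changed by 0.12 ± 0.05 and was not called, and Sort1 was called lower, where 74.6% of all genes were called (35.8% higher and 38.8% lower). The Vps35 call there differed in 8 of 18 alternatives: it was called higher with RLE scaling (0.15), DESeq2 (0.15), limma-voom (0.12) and mouse as a replicate block (0.12), and without SGC0946 replicate 1 (0.15) or SGC0946+LPS replicate 2 (0.14), and lower with library totals (-0.62) and upper quartile scaling (-0.18). Vps29 was not called without SGC0946+LPS replicate 1 (0.21). The responses of the arms differed by -0.06 ± 0.08 for Vps35, -0.01 ± 0.07 for Vps26a and 0.03 ± 0.12 for Vps29, with none of the 5 called, against 0.00833% of all genes (1 gene; 835 had an unadjusted edgeR p under 0.05).

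The direction of the retromer genes after LPS rests on the scaling. LPS libraries had TMM factors of 0.686 to 0.716 and the others 1.14 to 1.188. With library totals in place of TMM the median of all genes moved by -0.73 in the DMSO arm and by -0.74 in the SGC0946 arm, and the retromer genes were lower after LPS, at -0.56 (Vps35), -0.47 (Vps26a) and -0.49 (Vps29) in the DMSO arm and at -0.62, -0.49 and -0.48 in the SGC0946 arm. With upper quartile scaling they were at -0.14, -0.05 and -0.07 in the DMSO arm and at -0.18, -0.05 and -0.03 in the SGC0946 arm. On the TMM scale the retromer genes lay above the median of all genes and Sort1 below it in both arms, and since a change of scaling moves the genes and the median alike, the other scalings do not bear on that order. Sort1 was lower after LPS under each scaling, from -1.12 with library totals to -0.34 with RLE in the DMSO arm. Without the libraries titled reanalyzed, which left 1 unstimulated DMSO library, the DMSO arm changes were -0.55 for Sort1, 0.11 for Vps35, 0.24 for Vps26a and 0.19 for Vps29, and Vps35 and Vps29 were no longer called.

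**Figure D3:**
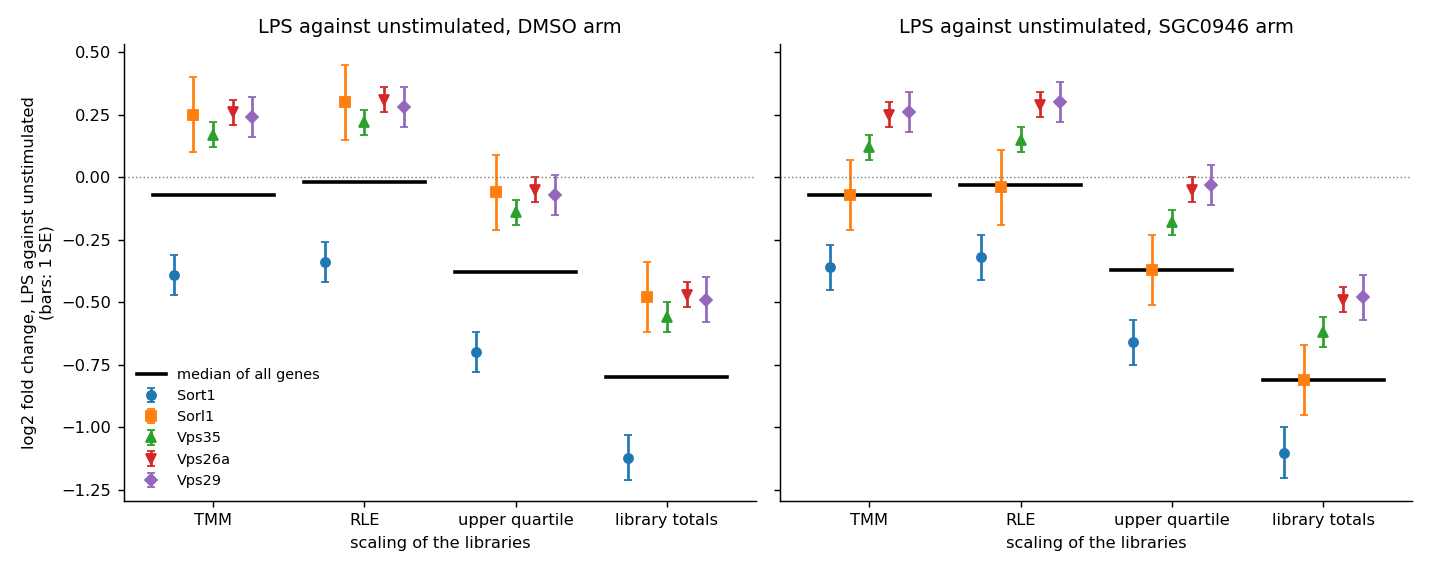
Log2 fold change of LPS against unstimulated cells (points, with bars of 1 SE) for the 5 genes under 4 ways of scaling the libraries, in the DMSO arm (left) and the SGC0946 arm (right); the black line is the median of all 12010 genes. Scaling moves the genes and the line together, and the sign of the retromer genes changes from TMM (0.26 for Vps26a in the DMSO arm) to library totals (-0.47).

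GW3965 left all 5 genes uncalled in both arms, where 2.55% (DMSO arm) and 2.42% (SGC0946 arm) of all genes were called. Retromer changes were 0.06 ± 0.05 (Vps35), 0.11 ± 0.05 (Vps26a) and 0.11 ± 0.08 (Vps29) in the DMSO arm and 0.10 ± 0.05, 0.07 ± 0.05 and 0.21 ± 0.08 in the SGC0946 arm. The Vps29 change in the SGC0946 arm was 0.30, and called, without SGC0946 replicate 1 and likewise without SGC0946+GW3965 replicate 2. No gene at all was called for the difference of GW3965 responses between the arms, by edgeR, DESeq2 or limma-voom, with 290 genes at an unadjusted edgeR p under 0.05.

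The 5 genes were set beside a list of 84 other genes of endosomal sorting, of which 83 were in the table and 72 were tested. In unstimulated cells SGC0946 changed 11 of the 72, with 2 higher and 9 lower (15.3%, against 8.72% of all genes; median -0.03, against 0 for all genes). App, whose product is a cargo of SORLA, was called in all 3 states. It fell by 0.38 ± 0.05 in unstimulated cells, by 0.35 ± 0.06 after LPS and by 0.39 ± 0.06 with GW3965 (edgeR adjusted p = 3.89e-05, 0.000435 and 0.000223). Its level was 801 to 862 CPM in DMSO and 610 to 661 CPM in SGC0946 cells, and it was still called without mice 2 and 4 (-0.33, edgeR adjusted p = 0.0338).

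Ankrd50, which encodes an endosomal recycling factor that works with SNX27 and retromer, rose by 0.52 ± 0.08 in unstimulated cells (edgeR adjusted p = 0.000283) and by 0.44 ± 0.09 after LPS (adjusted p = 0.00572). Its range was 17.9 to 20.7 CPM in DMSO and 23.8 to 30.4 CPM in SGC0946 cells. Apoe, which encodes a lipoprotein component and receptor ligand, rose by 0.63 ± 0.18 (edgeR adjusted p = 0.0328), from 542 to 639 CPM to 664 to 1150 CPM. The sorting nexin gene Snx2 fell by 0.27 ± 0.07 (edgeR adjusted p = 0.014). Without mice 2 and 4 none of Ankrd50, Apoe and Snx2 was called in unstimulated cells, at 0.45 for Ankrd50, 0.19 for Apoe and -0.10 for Snx2 (edgeR adjusted p = 0.114, 0.894 and 0.802). Leaving out single libraries also ended the call of Apoe (DMSO replicate 2, 3 or 4 or SGC0946 replicate 2 or 4, edgeR adjusted p = 0.0619 to 0.131) and of Snx2 (SGC0946 replicate 2 or 4, adjusted p = 0.0641 and 0.0573). Snx3, Washc5, Commd10, Gga2, Ap1s2 and Trem2 were also called lower, fell by 0.17 to 0.22 and are named after their values were seen.

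After LPS the inhibitor changed 4 of the 72 (1 higher and 3 lower, 5.56%, against 7.12% of all genes; median -0.09). Beside Ankrd50 and App these were the adaptor gene Gga2, which fell by 0.25 ± 0.06, and the sorting nexin gene Snx3, which fell by 0.21 ± 0.05 (edgeR adjusted p = 0.0158 and 0.015). Neither was called in a fit on the compared groups alone (edgeR adjusted p = 0.13 and 0.0869). Without DMSO+LPS replicate 2 neither these nor Ankrd50 was called (edgeR adjusted p = 0.0715, 0.0949 and 0.053), and Gga2 was also not called without DMSO+LPS replicate 1 (adjusted p = 0.0648) or with SGC0946+LPS replicate 2 left out (adjusted p = 0.0755). With mouse as a replicate block 7 of the list were called. With GW3965 it changed 2 (2.78%, against 3.64% of all genes; median -0.02), App and the AP-1 subunit gene Ap1s2, which fell by 0.31 ± 0.06 (edgeR adjusted p = 0.00567).

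LPS moved most of the list, as it did most genes. In the DMSO arm 29 rose and 22 fell (70.8%, against 74.1% of all genes; median 0.11, against -0.07), and in the SGC0946 arm 32 rose and 24 fell (77.8%, against 74.6%; median 0.09). With library totals the split was 11 higher and 54 lower in the DMSO arm and 10 and 55 in the SGC0946 arm, and with upper quartile scaling 18 and 39, and 20 and 40. By role, 7 of 9 other cargo receptor genes were called higher and 1 lower in the DMSO arm on the TMM scale, where 35.4% of all genes were called higher and 38.7% lower. With library totals these were 4 and 3, against 16.5% and 72.2% of all genes, and with upper quartile scaling 6 and 2, against 24.9% and 54.7%. Among 16 genes of the Retriever and CCC complexes, which recycle receptors alongside retromer, 2 were called higher and 7 lower on the TMM scale, 0 and 16 with library totals, and 0 and 12 with upper quartile scaling. The difference between these roles was not tested. The furin protease gene Furin rose by 2.17 ± 0.06 and the urokinase receptor gene Plaur by 2.35 ± 0.15 in the DMSO arm (edgeR adjusted p = 1.48e-18 and 6.79e-12), and Il6, a cytokine gene whose product is a sortilin ligand, went from 0.129 ± 0.0945 CPM to 381 ± 26.5 CPM. Rab7b, which encodes a late endosomal GTPase, fell by 2.42 ± 0.13, Vps26c, the Retriever paralog of Vps26a, by 1.45 ± 0.06 and Snx32 by 1.3 ± 0.12 (edgeR adjusted p = 2.44e-13, 4.2e-15 and 2.93e-09). These 6 genes kept their direction with library totals and with upper quartile scaling in both arms.

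The retromer paralogs moved unequally after LPS. Vps26b, whose product can take the place of VPS26A in the trimer and which is named here after its values were seen, fell by 0.89 ± 0.05 in the DMSO arm and by 1.00 ± 0.06 in the SGC0946 arm (edgeR adjusted p = 2.01e-12 and 3.51e-13). Its level was 102 to 111 CPM in DMSO and 55.9 to 60.6 CPM in DMSO+LPS cells, without overlap. In the same libraries Vps26a was higher on the TMM scale, at 0.26 and 0.25. Per transcript length, Vps26b was at 15.7 ± 0.418 RPKM and Vps26a at 75.1 ± 0.356 RPKM in DMSO cells (SD, n = 4), and the values were 5.22 ± 0.282 and 55.5 ± 3.6 RPKM in DMSO+LPS cells (SD, n = 3).

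GW3965 changed 2 of the 72 genes in each arm (2.78%, against 2.55% and 2.42% of all genes; median 0 in both). Lpl, the lipoprotein lipase gene and an LXR target, rose by 0.95 ± 0.14 in the DMSO arm and by 0.83 ± 0.14 in the SGC0946 arm (edgeR adjusted p = 0.000496 and 0.00183), and Adam17, which encodes a sheddase of VPS10 receptors, fell by 0.21 ± 0.05 and 0.22 ± 0.05 (adjusted p = 0.029 and 0.0182). The Lpl call in the SGC0946 arm was lost in a fit on the compared groups alone (adjusted p = 0.0598), where no list gene was called. The Adam17 call was lost without any 1 of 6 libraries in the DMSO arm, with DMSO+GW3965 replicate 2 the exception (edgeR adjusted p = 0.0569 to 0.176), and without SGC0946 replicate 4, SGC0946+GW3965 replicate 1 or SGC0946+GW3965 replicate 3 in the SGC0946 arm (adjusted p = 0.0599, 0.0805 and 0.113). For the differences of responses none of the 72 was called by edgeR, DESeq2 or limma-voom, with 4 (LPS) and 1 (GW3965) at an unadjusted edgeR p under 0.05.

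**Figure D4:**
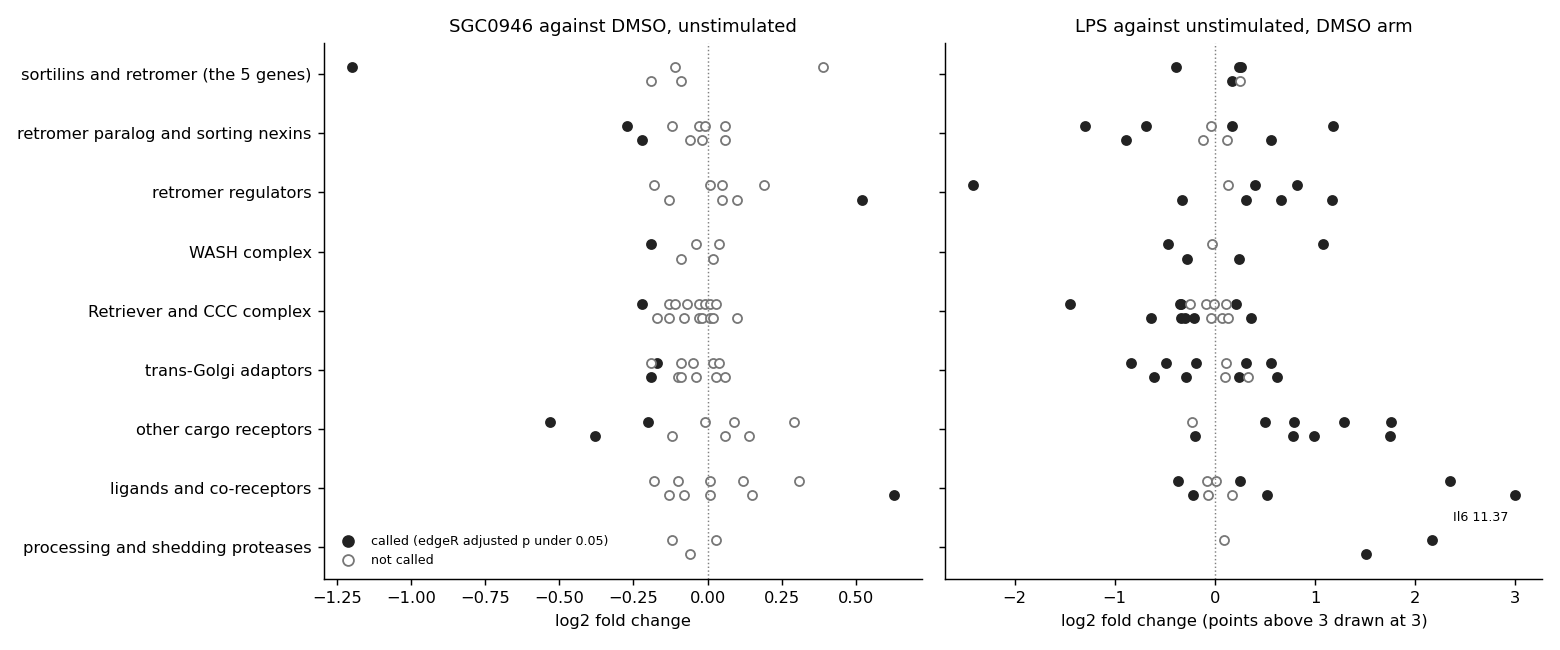
Log2 fold changes of the 5 genes and of the 72 tested list genes, one point per gene grouped by role on the vertical axis, for SGC0946 against DMSO in unstimulated cells (left) and LPS against unstimulated cells in the DMSO arm (right, TMM scale); filled points were called by edgeR. Sort1 (-1.20) is the lowest point on the left, where 2 list genes were called higher and 9 lower, and Rab7b (-2.42) is the lowest on the right.

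The profile of each receptor gene over the 6 groups was compared with those of 8248 genes with a mean of at least 10 CPM, by the root mean square difference of group means in log2 CPM after centring each gene. Among the genes closest to Sort1 were Sqle (0.236), Ptp4a3 (0.259), Acat2 (0.303) and Pcdhgc3 (0.317). Sqle and Acat2 encode enzymes of sterol and isoprenoid synthesis, and Ptp4a3 a phosphatase. In unstimulated cells the inhibitor changes were -0.70 (Sqle), -1.08 (Ptp4a3), -0.86 (Acat2) and -0.71 (Pcdhgc3), each smaller than the -1.20 of Sort1. For the inhibitor, Acat2 was not called in any state and its arms overlapped in each. Sqle was called in unstimulated and LPS cells but not with GW3965, and Pcdhgc3 in unstimulated cells only. None of Sqle, Acat2 and Pcdhgc3 was called for LPS in either arm. Ptp4a3 was called for the inhibitor in every state and for LPS in both arms. The genes closest to Sorl1 were Nbdy (0.037), Ahnak (0.061), Ecm1 (0.068), Man2b1 (0.068) and Gm2a (0.071). The profiles of Sorl1 and of the retromer genes are flatter than that of Sort1, and flat profiles lie close together by this measure. Among the 5 genes the retromer genes were close to each other (0.047 to 0.058), and Sort1 lay 0.575 to 0.736 from the other members. These distances rest on 6 group means from shared libraries and carry no test.

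**Figure D5:**
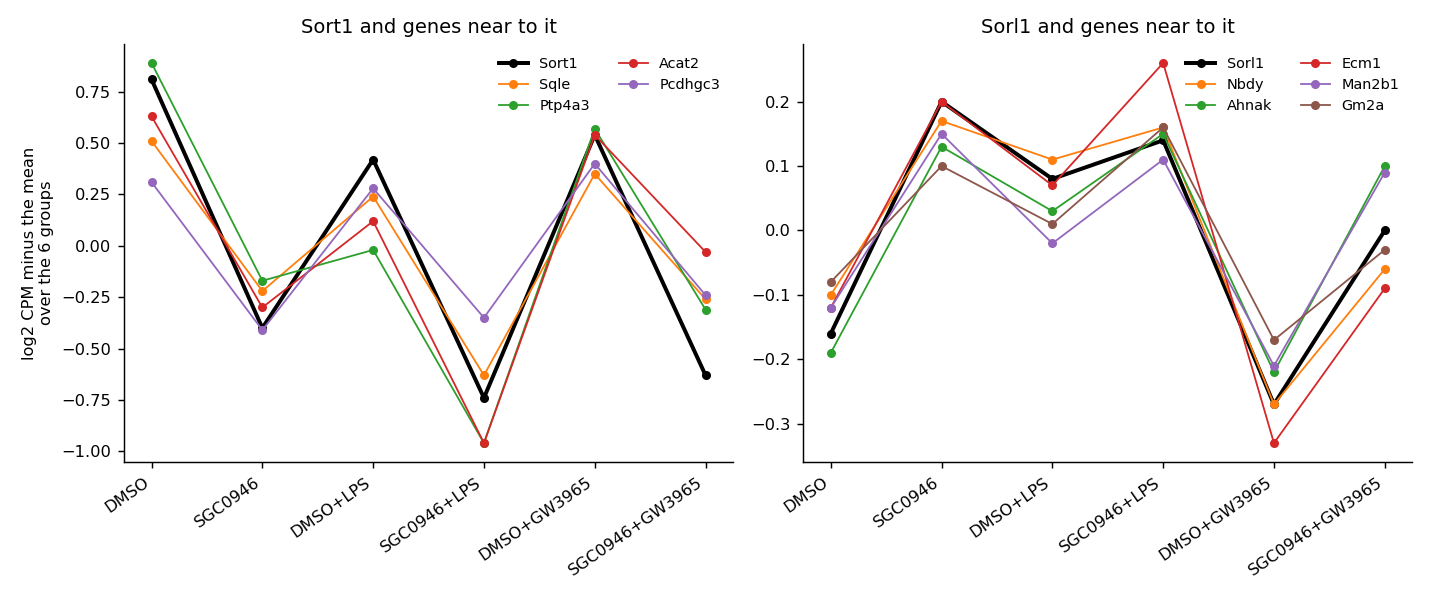
Group means of log2 CPM, each gene centred on its mean over the 6 groups, for Sort1 (left, black) and Sorl1 (right, black) with genes near to each in colour (4 for Sort1 and 5 for Sorl1); the vertical scales of the panels differ. Sort1 drops from 0.81 in DMSO to -0.40 in SGC0946 cells, and Sorl1 moves only between -0.27 and 0.20.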

How the data were processed

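The 20 libraries are single-end mRNA-seq of cultured macrophages. Per the submitters' processing notes, the authors aligned reads to mm10 with STAR 2.5.2b and used SAMtools 1.3.1; which program counted reads, on which annotation and with which strand setting is not stated in the labels or file headers. The authors deposited a table of read counts per RefSeq transcript and a table of RPKM values for the same 35745 transcripts. The deposited RPKM values were checked to be counts times 1 factor per library and 1 per transcript (780 transcripts of at least 2000 counts, relative deviation up to 5.41e-05), and were used only to compare levels between genes; they are not TMM scaled. Transcripts were named with the RefSeq gene table (35435 of 35745; the 310 unnamed held 1.18% of counts and were left out). For the 6034 symbols with several transcripts the most counted transcript was used, so that shared reads enter once; the resulting table holds 57.3% of all counts, 8.17 to 13.33 M counts per library (13.94 to 23.11 M over all transcripts).

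Testing used the quasi-likelihood F test of edgeR 4.0.16 under R 4.3.3 (all 20 libraries, 1 mean per group, TMM scaling, filterByExpr with a count minimum of 10), which kept 12010 genes; their biological coefficient of variation was 8.87%. The spread was pooled over groups although it was wider with SGC0946 (between libraries of a group, chi-square per gene ran from 3.1 to 14.4), so errors may be too small there. A gene was called where its p, adjusted by Benjamini-Hochberg over the whole table, was under 0.05, and CPM are counts scaled to library size after TMM. The arms were compared in each of 3 states, each stimulus was compared with no stimulus within each arm, and the responses of the arms were compared with each other; these comparisons share libraries. Mouse numbers come from the deposited sample table, in which the same number marks the same animal across groups, so replicates are separate animals within a group. Deviations from group means correlated at 0.0607 to 0.501 (median 0.205, 46 pairs) between libraries of the same mouse and at -0.409 to 0.257 (median -0.121, 120 pairs) otherwise. Mouse was left out of the reported fit and added as a block in an alternative. Other alternatives were RLE, upper quartile or library-total scaling, DESeq2 1.42.0, limma-voom (limma 3.58.1), other filters, only the compared groups, and leaving out libraries. The test was run on simulated counts first.

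The 5 genes, the gene lists and the comparisons were chosen with earlier results of these data known. Named from the list are up to 3 called genes per direction and comparison whose groups do not overlap, by size of change, and for each receptor gene the 5 nearest profiles. Exon overlaps come from GENCODE M21 and promoter windows from RefSeq (GRCm38.p6). No window for Sort1 and Vps35 was analysed here, and 2 genes that the rule selects are not reported here.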

Additional observations from a re-analysis of the deposited data

Results flagged for a closer look

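In unstimulated DMSO and SGC0946 cells, 42 sets of 4 libraries were examined. They cover 21 genes, the 5 genes and 16 selected from the list by the naming rule, not every gene named above. Of these sets, 1 held a library far from the others by Dixon's criterion. Adam17 stood at 253, 253 and 254 CPM in DMSO replicates 1 to 3 and at 262 CPM in replicate 4. Chance alone gives about 1 in 20 such sets. None of the 5 sortilin and retromer genes was among them.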

How the results depend on the processing

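Sort1 kept its direction and its call in each alternative run for the inhibitor comparisons (-1.37 to -1.14 over 20 alternatives in unstimulated cells, -1.22 to -1.09 over 17 after LPS, -1.21 to -1.14 over 16 with GW3965) and for LPS in both arms (-1.12 to -0.32 and -1.10 to -0.27 over 18 each). Since Sort1 was chosen for its change in these libraries, this describes the effect of processing and is no further support. The LPS changes of retromer genes reversed with library totals, to -0.56 (Vps35), -0.47 (Vps26a) and -0.49 (Vps29) in the DMSO arm and to -0.62 (Vps35), -0.49 (Vps26a) and -0.48 (Vps29) in the SGC0946 arm. With upper quartile scaling they were at -0.14, -0.05 and -0.07 in the DMSO arm and at -0.18, -0.05 and -0.03 in the SGC0946 arm. There Vps35 was called lower, and Vps26a and Vps29 were no longer called, in both arms. Library totals and upper quartile scaling moved the median of all genes by -0.73 and -0.31 in the DMSO arm. Of the 72 list genes, the 11 called in unstimulated cells became 1 without mice 2 and 4 and 1 without the libraries titled reanalyzed, and 4 to 12 when single libraries were left out (4 and 5 without SGC0946 replicates 4 and 2, and 6 without DMSO replicate 3 or 4). With mouse as a replicate block, in which the libraries of 1 animal are paired, 14 list genes were called in unstimulated cells, 7 after LPS (4 without it), 3 with GW3965, and 4 for GW3965 in the DMSO arm (2 without it); beyond these counts the block changed the calls of Sorl1 (0.38) and Vps29 (-0.20) in unstimulated cells and of Vps35 (0.12) after LPS in the SGC0946 arm, and of no other of the 5 genes. Over all genes it called 703 with GW3965 against 437. For GW3965 in the DMSO arm the list count was also 4 with library totals, 4 with DESeq2 and 6 with only the compared groups; in the SGC0946 arm it was 4 with no filter on low counts and 0 with only the compared groups. Leaving out single libraries gave 1 to 7 list genes after LPS (1 without DMSO+LPS replicate 2, and 7 with SGC0946+LPS replicate 2 left out), 2 with GW3965, 47 to 51 and 51 to 55 for LPS in the DMSO and SGC0946 arms, 1 to 2 and 1 to 4 for GW3965 (4 without SGC0946 replicate 3 or SGC0946+GW3965 replicate 2), and 0 for both differences of responses. The cause of these moves was not tested, beyond the fewer libraries that some settings leave. Over all genes, those called in unstimulated cells went from 1047 to 112 without mice 2 and 4 and to 103 without the libraries titled reanalyzed. Low counts limit Sort1 and Sorl1 most in SGC0946+LPS libraries, where Sort1 had 190 to 270 counts.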

Other observations

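Genes of known sortilin cargo stood above Sort1 per transcript length, Psap and Grn by a wide margin. In DMSO cells the prosaposin gene Psap stood at 6598 ± 133 RPKM, the progranulin gene Grn at 1498 ± 66.9 RPKM and the acid sphingomyelinase gene Smpd1 at 18.8 ± 0.983 RPKM, against 13.3 ± 1.21 RPKM for Sort1 (SD, n = 4). In SGC0946 cells the values were 6117 ± 628, 1495 ± 61.4 and 17.7 ± 1.33 RPKM, against 5.77 ± 0.774 RPKM for Sort1, and none of these 3 cargo genes was called in any of the 3 comparisons of the arms. The mannose 6-phosphate receptor genes M6pr and Igf2r, which serve a parallel route to the lysosome, stood at 104 ± 1.64 and 25.6 ± 2.13 RPKM in DMSO and at 102 ± 7.3 and 31.1 ± 0.899 RPKM in SGC0946 cells. Neither M6pr nor Igf2r was called in any of the 3 comparisons of the arms.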
